A study of Mus musculus with 13 samples.

Results

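The signal recognition particle, its receptor at the endoplasmic reticulum (ER) and the Sec61 channel were followed through 10 mRNAs in C2C12 cells, an established mouse myoblast line, after depletion of the RNA-binding protein YBX3. The group was built around Srpra, which was selected on its lower level after YBX3 siRNA in these same libraries. The other 9 genes, Srprb, Srp9, Srp14, Srp19, Srp68, Srp72, Sec61a1, Sec61b and Sec61g, were added because their products belong to the same machinery. Earlier results of these data were known when they were added. All 10 were among the 55642 genes listed, and all 10 were among the 16848 genes with enough counts to be tested.

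Cells were transfected with nontargeting siRNAs (control KD) or with siRNAs against Ybx3 (YBX3 KD) and harvested 48 h later. At 0 day they were proliferating myoblasts in growth medium, and at 1 day they had spent the last 24 h in differentiation medium. mRNA libraries were sequenced from 4 control KD and 4 YBX3 KD cultures at 0 day, and from 2 control KD and 3 YBX3 KD cultures at 1 day, 13 libraries in all. The labels name no engineered allele, and the sources used here do not say which of the listed siRNAs, singly or pooled, went into these transfections. Other experiments of the study used a pool of YBX3 siRNAs or single ones. Each library is bulk RNA, so that fewer cells with an mRNA cannot be told apart from less of it per cell.

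Proteins bound for secretion or for membranes carry a signal sequence that emerges first from the ribosome. The signal recognition particle binds this sequence, slows translation and brings the ribosome to its receptor on the ER, where GTP hydrolysis by the particle and the receptor releases the signal into the Sec61 channel. Muscle precursors depend on this route for the adhesion proteins, receptors and transporters of their surface.

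Library totals ranged from 33451547 to 71811371 counts. Ybx3 stood at 265 to 347 CPM (counts scaled to the size of the library) in the 6 control KD libraries and at 28.7 to 71.5 CPM in the 7 YBX3 KD libraries, a log2 fold change of -2.81 (SE 0.17). Of the myoblast markers, Cdh15, Chrna1 and Myf5 were at 31.3 CPM or more in every library. Myod1, a defining myoblast regulator, was at only 0.601 to 3.32 CPM. Chrna1, a subunit of the muscle acetylcholine receptor, rose by 0.37 on the log2 scale in YBX3 KD (edgeR, adjusted p = 0.0412), a call lost in 10 of the 13 fits that each left out 1 library. The other 4 markers did not pass, and the log2 fold changes of all 5 over both days were positive, from 0.03 to 1.09. Epcam and Snap25 had no count in any library, and Cdh1, Ptprc, Pecam1, Adipoq and Plin1 stayed at or below 0.112 CPM, while Cd68, Cdh5 and Tubb3 were at 0.728 to 19.0 CPM. The 4 libraries with replicate letter D stood apart from the others, with Des, a muscle filament protein, at 43.7 to 54.8 CPM against 15.5 to 25.9 CPM.

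Srpra encodes the alpha subunit of the receptor, the GTPase that docks the particle at the ER membrane. The gene lies on the plus strand at chr9:35111471-35172234 (GRCm39), and its canonical transcript of 3066 bases has 14 exons and a 3′ untranslated region (UTR) of 948 bases. Since Srpra was selected on a contrast between siRNAs, the antisense strands listed for the mouse YBX3 siRNAs are shown, 5′ to 3′, with the seed (bases 2 to 8) in capitals.
siRNA 05: uAUAGUUGuagggacgucg
siRNA 06: aUAGUAGCcgcgucuguac
siRNA 07: uCCAUAUCcauuucugacg
siRNA 08: aUACUUGCguggguuguuu
The complement of each listed antisense strand was found in the canonical Ybx3 transcript, although the antisense strand listed for siRNA 07 is not the complement of its listed sense strand. Of the 10 genes, only Srpra held in its canonical 3′ UTR a match to the seed of any of these siRNAs, and it was to the seed of siRNA 06. The match, in capitals, lies in the last of its exons at chr9:35128228-35128234 of the plus strand, within this stretch at chr9:35128216-35128238.
Srpra 3′ UTR: tattacagatgtGCTACTAgtgc

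The letters GCTACTA were in the 3′ UTR of 634 of the 12936 tested genes with an annotated 3′ UTR, or 4.9%, and 20.4% held a match to at least 1 of the 4 seeds. The match to the seed of siRNA 06 was in 29 of the 31 annotated Srpra transcripts, and a match to the seed of siRNA 08 was in 4 of them. Srpra also held a 3′ UTR match to the seed of nontargeting siRNA 04, as did 31.8% of these genes. When the whole canonical transcript was searched, Srp72 and Sec61b also held a match, to the seed of siRNA 08, while 36.1% of tested genes with a transcript held a match to at least 1 seed. Over both days, 4.1% of the genes with a 3′ UTR match to the seed of siRNA 06 had a lower level in YBX3 KD at an adjusted p under 0.05, against 1.2% of the genes without one. Their median log2 fold changes were -0.0235 and 0.0003. With and without one, medians were 0.0142 and -0.0028 for siRNA 05, 0.0100 and -0.0022 for siRNA 07, and -0.0541 and 0.0026 for siRNA 08. The shares with and without a match were 1.38% and 1.34% for siRNA 05, 2.07% and 1.3% for siRNA 07, and 6.79% and 0.946% for siRNA 08. For the seeds of the 4 nontargeting siRNAs, which were given to the control KD cells, the shares also count genes lower in YBX3 KD. They ran from 1.19% to 1.85% with a match and from 1.11% to 1.35% without one. Genes lowered in control KD would instead be higher in YBX3 KD, which these shares do not count. Median log2 fold changes for these 4 seeds ran from 0.0083 to 0.0731 with a match and from -0.0094 to -0.0017 without one. No share or median was adjusted for the length of the 3′ UTR, and the part of seed matches in the level of Srpra was not tested.

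Srpra was lower in every YBX3 KD library than in every control KD library. At 0 day the 4 control KD libraries had 148, 149, 151 and 139 CPM (replicates A to D) and the 4 YBX3 KD libraries had 86.8, 93.2, 79.9 and 96.3 CPM. At 1 day the control KD libraries had 148 and 153 CPM (C and D) and the YBX3 KD libraries had 75.9, 101 and 75.3 CPM (B, C and D). The groups therefore did not overlap at either time, and the highest YBX3 KD value, in replicate C at 1 day, was 101 CPM against a lowest control KD value of 139. The share of all tested genes that separate in this way was not counted, and Srpra was selected on this contrast. The mean was 148 ± 4.63 CPM in control KD (SD, n = 6) and 86.9 ± 10.3 CPM in YBX3 KD (SD, n = 7), which left 58.9% of the control level in the fit over both days. The log2 fold change was -0.76 (SE 0.08) over both days, -0.72 (SE 0.10) at 0 day and -0.84 (SE 0.13) at 1 day. No p is given for these values, since they chose the gene.

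**Figure D1:**
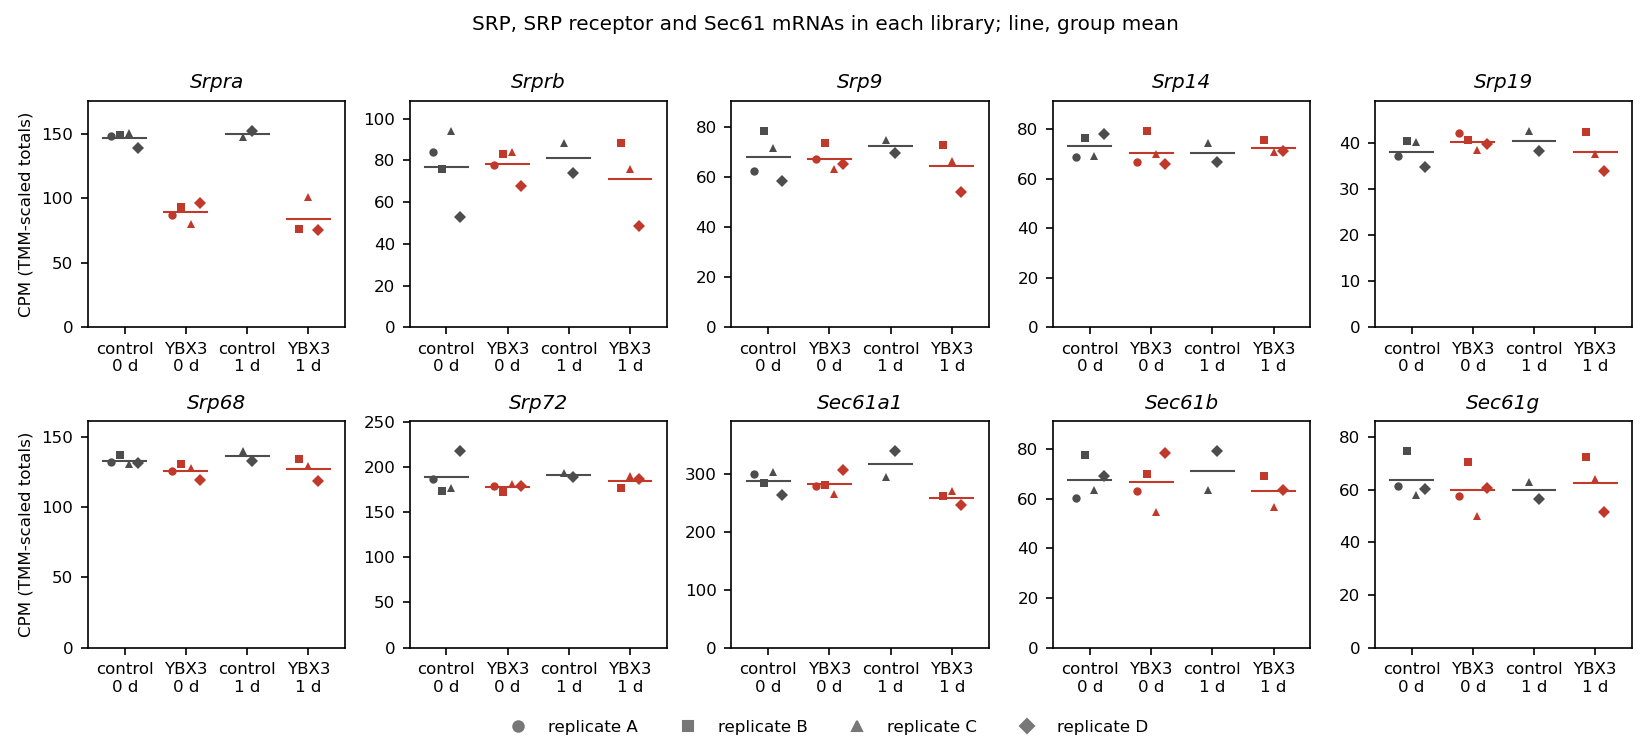
Level of each of the 10 mRNAs in CPM (y axis, from 0) in the 13 libraries, by siRNA and day (x axis), with the replicate letter as symbol and the group mean as a line. Srpra is separated by siRNA, 75.3 to 101 CPM in YBX3 KD against 139 to 153 CPM in control KD, while the ranges of the other 9 mRNAs overlap.

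None of the partners moved with Srpra past the test: 0 of the 9 had an adjusted p under 0.05 in YBX3 KD against control KD over both days (edgeR quasi-likelihood test, Benjamini-Hochberg over all 16848 genes). Among all tested genes 436, or 2.59%, passed in this comparison. None of the 9 reached an unadjusted p under 0.05, as 2797 of all tested genes did (16.6%). The reported edgeR fit left out the replicate letter. With the letter as a block, edgeR called 1785 of all genes and 0 of the 9. DESeq2 and limma-voom also called 0 of the 9, as did the edgeR fit without the 4 libraries of letter D, while they called 1179, 3088 and 2278 of all genes. Their log2 fold changes ran from -0.12 to 0.02 with a median of -0.07, beside a median of 0.00 over all tested genes, and 8 of the 9 were negative. Under the stricter call, a change of over 1.3-fold with an adjusted p under 0.001, again 0 of 9 partners passed, against 0.113% of all genes. The lowest bound among the 9 95% intervals was -0.38, for Srprb.

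Srprb encodes the beta subunit, the small membrane-anchored GTPase that holds the alpha subunit at the ER. At 0 day it stood at 84.0, 75.6, 94.3 and 52.9 CPM in control KD and at 77.7, 82.8, 84.1 and 67.7 CPM in YBX3 KD (A to D). At 1 day it stood at 88.2 and 73.9 CPM in control KD (C and D) and at 88.4, 75.9 and 48.6 CPM in YBX3 KD (B, C and D). The siRNA groups overlapped throughout, and replicate D was the lowest library of each of the 4 groups. The log2 fold change over both days was -0.06 (95% interval -0.38 to 0.27, adjusted p = 0.884), the widest interval of the 9.

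The canonical transcripts of the 2 receptor subunits differ in length by only 2 bases (3066 and 3064). Which transcripts of each gene gave the counts was not examined. The ratio of Srpra to Srprb was 1.60 to 2.63 in the 6 control KD libraries and 0.858 to 1.55 in the 7 YBX3 KD libraries. The geometric means were 1.92 and 1.17, so that the CPM of alpha subunit mRNA was closer to that of beta subunit mRNA in depleted cells. Every YBX3 KD library lay below every control KD library in this ratio, and the same held for the ratio of Srpra to each of the other 8 partners. Against Srp68, the partner with the smallest spread between libraries, the ratio was 1.10 in control KD and 0.685 in YBX3 KD on the CPM scale. The ratios follow from the values that chose Srpra and carry no test.

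**Figure D2:**
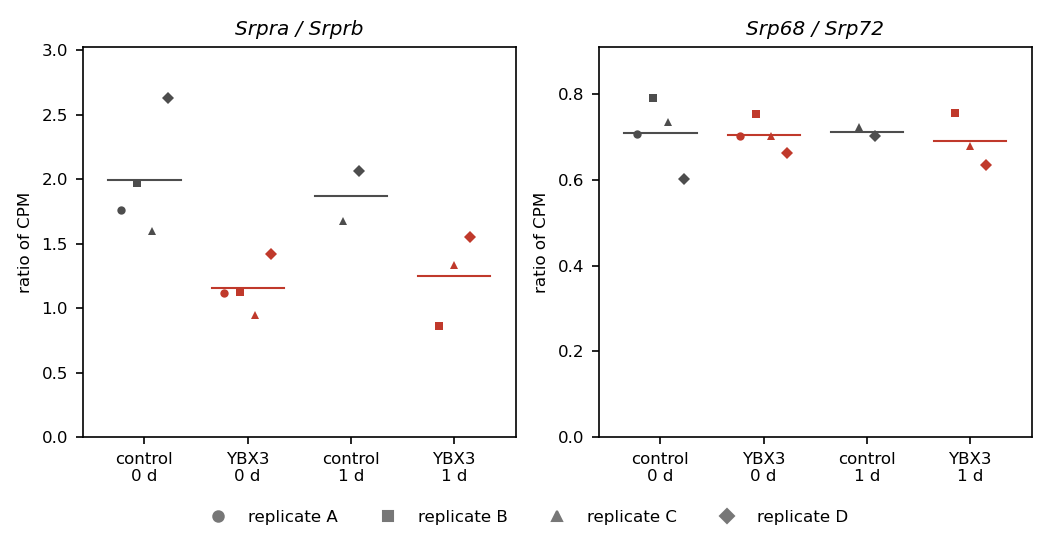
Ratio of CPM (y axis, from 0) of Srpra to Srprb and of Srp68 to Srp72 in each of the 13 libraries, by siRNA and day (x axis), with the replicate letter as symbol and the group mean as a line. The receptor ratio is 1.60 to 2.63 in control KD and 0.858 to 1.55 in YBX3 KD, and the Srp68 to Srp72 ratio is 0.601 to 0.791 and 0.633 to 0.755.

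Srp68 and Srp72 form the dimer that holds the particle's RNA and contacts its signal-binding end. Srp68 had the narrowest spread within groups of the 10, an SD of 0.06 on the log2 CPM scale. At 0 day it was at 132, 137, 130 and 131 CPM in control KD and at 126, 130, 127 and 119 CPM in YBX3 KD (A to D). At 1 day it was at 140 and 133 CPM in control KD (C and D) and at 134, 129 and 119 CPM in YBX3 KD (B, C and D). In 6 of 7 YBX3 KD libraries it was below all control KD libraries, and it was lower in each of the 6 pairs of libraries with the same day and letter. Neither count was made over all tested genes. The difference was small, a log2 fold change of -0.09 (95% interval -0.19 to 0.01, adjusted p = 0.372), and passed only in DESeq2 with the letter as a block, an alternative added after seeing the data (adjusted p = 0.0116). Its adjusted p over the 24 alternatives ran from 0.0116 to 0.658. Srp72 was at 173 to 218 CPM in control KD and at 173 to 190 CPM in YBX3 KD, which gave a log2 fold change of -0.07 (95% interval -0.20 to 0.05, adjusted p = 0.575). The ratio of Srp68 to Srp72 overlapped between the siRNA groups.

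Srp9 and Srp14 form the dimer that slows elongation, and Srp19 helps to assemble the particle on its RNA. Srp9 was at 58.6 to 78.6 CPM in control KD and at 53.9 to 73.4 CPM in YBX3 KD, a log2 fold change of -0.07 (adjusted p = 0.722). Srp14 was at 66.6 to 78.3 CPM and at 66.1 to 79.5 CPM, a log2 fold change of -0.02 (adjusted p = 0.919). Srp19 was at 34.8 to 42.8 CPM and at 34.1 to 42.5 CPM, a log2 fold change of 0.02 (adjusted p = 0.937). The siRNA groups overlapped for all 3 of these mRNAs, with mean CPM in YBX3 KD within 1 SD of the control KD mean. The remaining protein of the particle, the signal-binding GTPase SRP54, is encoded in the mouse by Srp54a, Srp54b and Srp54c, which are uncertain because the transcripts of Srp54c and Srp54b are 99.7% and 99.5% identical to that of Srp54a where they align and can share reads. Their log2 fold changes were -0.06, 0.32 and -0.13 (adjusted p = 0.772, 0.557 and 0.430).

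Sec61a1 encodes the pore of the channel, and Sec61b and Sec61g its small subunits. At 0 day Sec61a1 was at 299, 284, 302 and 263 CPM in control KD and at 279, 281, 266 and 306 CPM in YBX3 KD (A to D). At 1 day it was at 295 and 340 CPM in control KD (C and D) and at 261, 270 and 246 CPM in YBX3 KD (B, C and D). The groups overlapped at 0 day, and the 3 YBX3 KD libraries of 1 day lay below both control KD libraries of that day. With so few libraries at 1 day, such a separation can readily arise by chance. The share of all tested genes that separate likewise was not counted. The log2 fold change at 1 day was -0.29 (95% interval -0.51 to -0.08), with an unadjusted p of 0.0109 and an adjusted p of 0.486 by the edgeR fit. It was -0.15 without the 4 libraries of letter D and -0.19 without the control KD library D of 1 day. Without the control KD library C of 1 day it was -0.39. The lowest adjusted p over the alternatives was 0.0537, in DESeq2 with the letter as a block. Sec61b was at 60.2 to 79.2 CPM in control KD and at 54.5 to 78.4 CPM in YBX3 KD, a log2 fold change over both days of -0.08 (adjusted p = 0.727). Sec61g was at 56.6 to 74.9 CPM and at 50.1 to 72.5 CPM, a log2 fold change of -0.03 (adjusted p = 0.911). Pseudogene copies at least 95% identical over 150 bases or more carried at most 9.14% as many counts as Sec61g and at most 5.43% as many as Srp9 in any library.

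Within each day the partners again gave 0 calls. At 0 day 0 of 9 passed an adjusted p under 0.05 (81 genes, 0.481% of all tested) and none had an unadjusted p under 0.05, beside 2027 of all tested genes. At 1 day 0 of 9 passed (12 genes, 0.0712%), and Sec61a1 was the only partner with an unadjusted p under 0.05, beside 1327 of all tested genes. DESeq2 and limma-voom also called 0 of 9 at each day.

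A separate test asked if the siRNA effect in differentiating cells differed from that in proliferating cells, as the difference of their log2 fold changes. None of the 10 mRNAs passed an adjusted p under 0.05 in edgeR, DESeq2 or limma-voom, nor did any gene in the edgeR fit (0.00%, with 477 genes at an unadjusted p under 0.05). For Srpra the effect at 1 day minus that at 0 day was -0.11 (95% interval -0.47 to 0.24, adjusted p = 1.00). Its sign was not stable, at 0.11 in limma-voom, 0.051 without the 4 libraries of letter D, and -0.26 (without YBX3 KD replicate C of 1 day) to -0.035 (without replicate B) when 1 library was left out. For Sec61a1 it was -0.27 (95% interval -0.54 to -0.0018), the only one of the 10 with an unadjusted p under 0.05 (0.0487, adjusted p = 1.00). The Sec61a1 value was -0.043 without the 4 libraries of letter D, -0.17 without the control KD library D of 1 day or in limma-voom, and -0.36 without the control KD library C of 1 day.

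**Figure D3:**
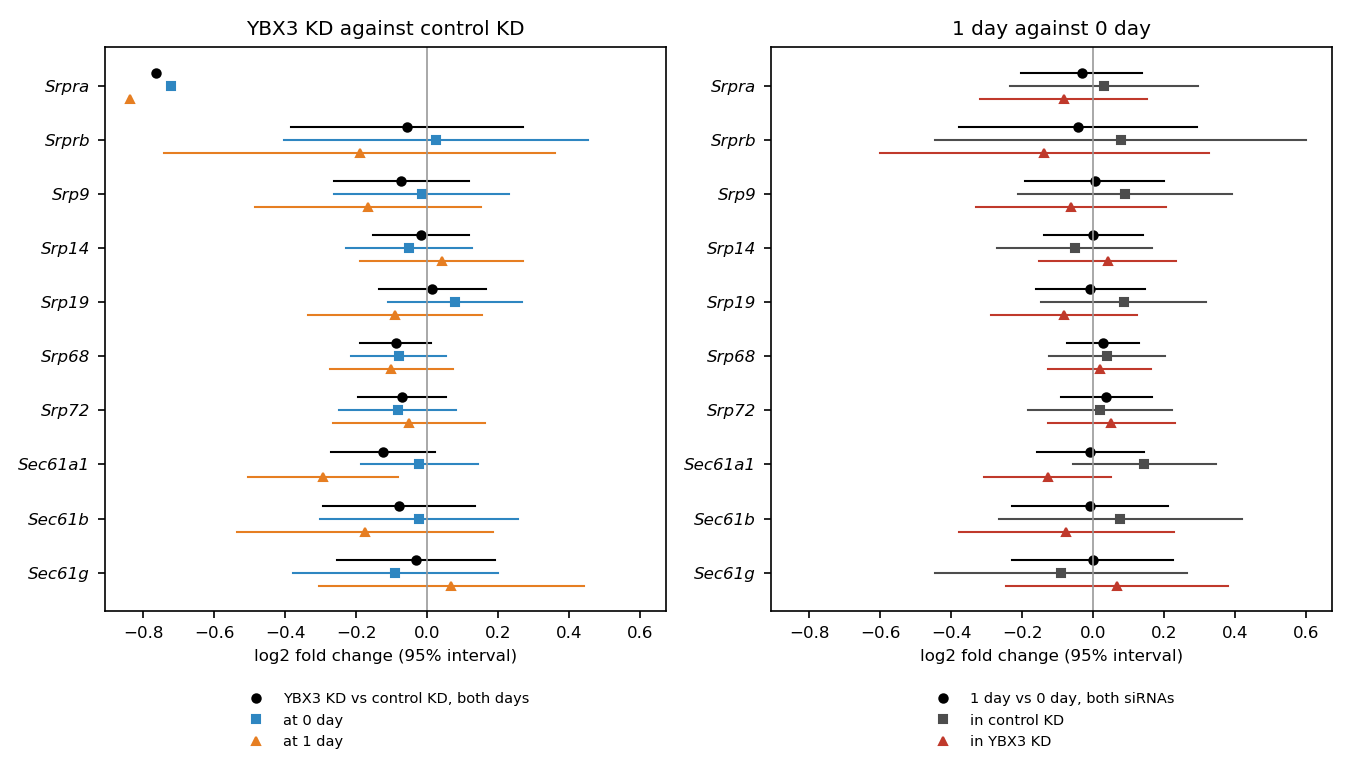
Log2 fold change (x axis) of the 10 mRNAs (y axis) for YBX3 KD against control KD (left) and 1 day against 0 day (right), with 95% intervals from the edgeR fit, omitted for Srpra on the left because those values chose it. Srpra lies at -0.84 to -0.72 on the left, and the estimates over both days of its 9 partners lie between -0.12 and 0.02.

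The step into differentiation medium did not choose these genes, and all 10 could be tested in it. Over both siRNAs, 0 of 10 passed an adjusted p under 0.05 in 1 day against 0 day, and none reached an unadjusted p under 0.05. Log2 fold changes ran from -0.04 to 0.04. No gene at all passed in this comparison with edgeR (0.00%, with 557 genes at an unadjusted p under 0.05), while DESeq2 called 2 genes and limma-voom 33, none of them among the 10. Within control KD 0 of 10 passed (0.00% of all genes, 251 at an unadjusted p under 0.05), and within YBX3 KD 0 of 10 passed (0.00%, 791 at an unadjusted p under 0.05), again with DESeq2 and limma-voom at 0 of 10. For Srpra the day step was 0.03 in control KD (95% interval -0.23 to 0.30) and -0.08 in YBX3 KD (95% interval -0.32 to 0.15). For Srprb, the least precise, the interval over both siRNAs was -0.38 to 0.29, and for Srp68, the most precise, -0.07 to 0.13. The reported fit left out the replicate letter, and the letters were uneven over the days. At 0 day letters A to D were present, at 1 day C and D in control KD and B to D in YBX3 KD. Letter and day are therefore partly mixed in these day steps.

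Beyond the 10 genes, 69 genes of protein entry into the ER were followed in 8 lists: other factors at the emerging chain, channel partners, signal peptidase, oligosaccharyltransferase, the multipass translocon, the ER membrane complex, routes that bypass the particle, and targets of the unfolded protein response. All 69 were tested, and 2 passed an adjusted p under 0.05 in YBX3 KD against control KD over both days, 2.9% beside the 2.59% of all genes. Medians per list lay between -0.09 and 0.07.

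Tram1, a channel partner that contacts signal sequences as they enter, fell by 0.31 on the log2 scale (SE 0.06, adjusted p = 0.0182). It was at 109 to 140 CPM in the 6 control KD libraries and at 90.3 to 107 CPM in the 7 YBX3 KD libraries, with no overlap. Such separation was not counted over all tested genes. The call was lost when the YBX3 KD library A of 0 day (adjusted p = 0.05005) or the control KD library D of 1 day (adjusted p = 0.0528) was left out, and with no filter on low counts (adjusted p = 0.0539).

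Dnajb9, a co-chaperone of the ER chaperone BiP and a target of the unfolded protein response, rose by 0.39 (SE 0.08, adjusted p = 0.0318). It was at 14.7 to 19.2 CPM in control KD and at 18.4 to 23.8 CPM in YBX3 KD, with overlap between the highest control and the lowest depleted library. The call was lost in 8 of the 13 fits that each left out 1 library, with adjusted p from 0.0307 to 0.0896. The other 13 targets of that response, Hspa5, Hsp90b1, Xbp1 and Ddit3 among them, did not pass. With the replicate letter as a block, 2 list genes were higher (Dnajb9 and Magt1) and 3 lower (Tram1, Get1 and Krtcap2), in a fit where 1785 of all 16848 genes passed.

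In the 3 day steps and in the difference of the effect between days, edgeR called 0 of the 69 list genes, with 1, 0, 2 and 0 at an unadjusted p under 0.05 over both siRNAs, in control KD, in YBX3 KD and for the difference. For YBX3 KD within 0 day and within 1 day it also called 0, with 6 and 3 at an unadjusted p under 0.05, beside 12% and 7.88% of all tested genes.

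**Figure D4:**
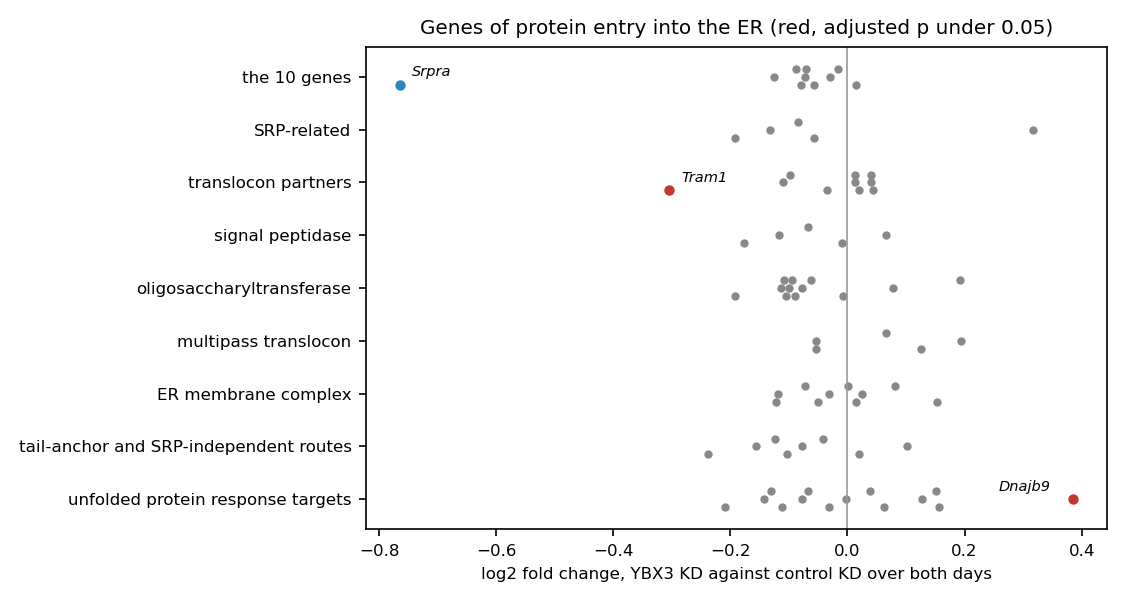
Log2 fold change over both days (x axis) of the 10 genes and of the 69 genes in the 8 lists (y axis), 1 point per gene. Points in red have an adjusted p under 0.05, Tram1 at -0.31 and Dnajb9 at 0.39, and the blue point is Srpra at -0.76, which chose the set.

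Over the 13 libraries, the profiles of log2 CPM most like that of Srpra were those of Pygb, which breaks down glycogen (Pearson r = 0.983), Tfg, a protein of ER exit sites (0.976), Mad2l2, a protein of DNA repair and mitosis (0.975), Aph1b, a gamma-secretase subunit (0.975), and Ybx3 itself (0.968). Group means were not removed, so that r and its ranks include the siRNA contrast on which Srpra was selected. They describe that contrast as well as the spread between libraries, and are no separate support. The nearest of the partners were Sec61a1 (0.657) and Srp68 (0.622), at ranks 760 and 934 of 16847 genes, and the remaining 7 were at 0.336 or below.

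Exons of genes on the opposite strand overlap the canonical transcripts of 3 of the 10. Exons of Foxred1 and Fam118b overlap 10.6% and 4.44% of the canonical Srpra transcript, and whether the counting used strand is not given in the sources used here. Neither neighbour passed in YBX3 KD: the log2 fold change was 0.12 for Foxred1 (10.7 to 17.2 CPM over the libraries, adjusted p = 0.647) and -0.11 for Fam118b (11.2 to 13.9 CPM, adjusted p = 0.459). Exons of Eif2ak4 overlap 13.8% of the Srp14 transcript, and those of Gm44170 overlap 17.3% of the Sec61a1 transcript.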

How the data were processed

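The authors deposited 1 table of estimated counts per gene, not normalized, for 13 libraries. Per the labels and the study's methods, reads were mapped with Salmon to GRCm39 with Gencode M30. How estimates were summed and made whole, and the Salmon version, are not given in the sources used here. Labels call replicates biological. The members and lists were chosen with earlier results of these data known.

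Counts were filtered (filterByExpr) and TMM-scaled. They were fitted with edgeR 4.0.16 (quasi-likelihood, legacy = FALSE) in R 4.3.3 on all 13 libraries, with day as a covariate or 1 coefficient per group. P-values were Benjamini-Hochberg adjusted over 16848 genes. CPM use TMM-scaled totals, and intervals use each gene's residual degrees of freedom. Alternatives included DESeq2 1.42.0 and limma 3.58.1 (voom with quality weights). The code was tested on simulated data. Positions, transcripts and sequences came from GENCODE vM39 (GRCm39), and siRNAs from the study's oligonucleotide list. Copies were searched with BLAST+ 2.17.0. Named genes were Ybx3, the 10 genes, the Srp54 genes, list genes with adjusted p under 0.05 and the 5 profiles most like Srpra.

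The labels do not say what the replicate letters stand for. Residuals of all 16 same-letter library pairs from different groups correlated above 0.1 (0.117 to 0.730), against 8 of 16 pairs with the same title number (-0.416 to 0.576). The reported fits left this pairing by letter out, and fits with the letter as a block were alternatives. Within-group library pairs differed by more than sampling noise. A search for GTPase motifs in the proteins was not run here.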

Additional observations from a re-analysis of the deposited data

How the results depend on the processing

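For Srpra, all 24 alternatives gave a lower level in YBX3 KD over both days, with log2 fold changes from -0.81 to -0.73 and -0.76 with the letter as a replicate block. At 1 day, limma-voom gave -0.66, and leaving out 1 library gave -0.99 (without YBX3 KD replicate C of 1 day) to -0.76. At 0 of 9, the count of partners that passed over both days moved only in DESeq2 with a block by letter, a fit added once the data had been seen, where it was 1 (Srp68). No alternative gave a call for any of the 10 in a day step or in the difference between days, and the block changed no other call among the 10. For the 8 lists, the genes higher and lower numbered 3 and 4 in DESeq2, 3 and 7 in limma-voom, 0 and 0 with no filter, 2 and 3 with the letter as a block, 2 and 4 without the 4 libraries of letter D, and 4 and 6 in DESeq2 with the letter as a block. Leaving out 1 library gave 0 to 2 higher and 0 to 2 lower. The cause was not tested. Over all genes, calls over both days numbered 436 in the reported fit, 1179 in DESeq2, 3088 in limma-voom, 212 with no filter, 1785 with the letter as a block, 2278 without letter D and 2951 in DESeq2 with the letter as a block. For 1 day against 0 day over both siRNAs, 174 genes passed without letter D and 23 in DESeq2 with the letter as a block, none of them among the 10. Residual degrees of freedom, and the 2 control KD libraries of 1 day, limit the precision of the 1 day values.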
